A study of Arabidopsis thaliana with 6 samples.

Results

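The genes described here encode the heat shock proteins (HSPs) and heat shock factors (HSFs) of Arabidopsis thaliana. They were taken from the deposited count table by name or description: 60 of them are named as a numbered HSP or HSF, 48 are described as a heat shock protein, a heat shock transcription factor or an HSP20-like chaperone, and 24 meet both conditions. This gave 84 of 33602 genes, which comprise 21 HSFs, 19 small HSPs, 17 other HSP20-like genes, 13 HSP70 genes, 6 genes of J-domain proteins, 5 HSP90 genes, 2 HSP60 genes and the gene named HSP1. The rule reads names, so genes such as HSP101 and HSC70-1, which the table lists under other names, are outside the 84 and are treated apart.

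The 2 groups compared by polyA RNA-seq are sorted cells of the floral abscission zone, with 3 libraries each. Residuum cells (REC) are the abscission zone cells of the receptacle, and secession cells (SEC) are those of the separated organs. Every library came from flowers at stage 16 and from the same reporter genotype, proQRT2::nlsGFP-GUS, a fusion of nuclear-localised GFP and GUS under the promoter of QRT2 (a polygalacturonase gene); the labels give neither group a further allele or a treatment. Cells were isolated as protoplasts and sorted by fluorescence, and low-input SMART-Seq amplification of cDNA preceded TruSeq library construction. The labels do not say whether the numbered libraries are separate plants, sorts or pools, so the p-values measure the spread between these samples, possibly a technical one.

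HSFs are transcription factors that bind heat shock elements, inverted repeats of the unit GAA. Class A factors activate transcription, whereas class B factors lack the activator motif and several of them repress heat genes in Arabidopsis. HSP90, HSP70 with its J-domain partners, and the HSP60 chaperonins fold or refold client proteins with ATP, and small HSPs hold unfolding proteins in solution without it. Many of these genes are induced by heat, while cognate members of the HSP90 and HSP70 families are expressed in unstressed cells.

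Heat shock elements were searched for in the 250 bases before each gene start of the deposited table (TAIR10). The paired element was GAANNTTC or TTCNNGAA. The 3-unit element was GAANNTTC followed by NNGAA, or TTCNNGAA followed by NNTTC, and so contains 2 overlapping paired elements. Both strands were covered, since each paired motif is its own reverse complement and the 3-unit motifs are reverse complements of each other. A paired element was present before 32 of the 84 genes (38.1%), against 4406 of 26688 protein-coding nuclear genes (16.5%). The 3-unit element was present before 10 of the 84 (11.9%), against 120 of all protein-coding genes (0.45%). These 10 windows are shown because they hold the full element, each as 30 bases read 5′ to 3′ on the strand of the gene, with the matching bases in capitals.
HSFA2 (chr2:11135527-11135556, plus strand): attagtaacGAAGTTTCTGGAAcattgtct
HSFB2A (chr5:24916057-24916086, plus strand): actccatagGAAGTTTCTTGAAgcctaaaa
HSFB2B (chr4:7042449-7042478, plus strand): gaaaaaagaGAAACTTCTGGAAaaagaaaa
HSP81-1 (chr5:21352253-21352282, plus strand): aaacgaaaaGAACTTTCTGGAAttcgtttg
HSP70-3 (chr3:2905765-2905794, minus strand): cgagccatcGAACCTTCTCGAAactcgagt
HSP70-6 (chr4:12589905-12589934, plus strand): catcttctcTTCTCGAAACTTCaagtgggg
HSP70-7 (chr5:20303340-20303369, plus strand): ccaaccattTTCTAGAACCTTCcacttctt
HSP17.4A (chr3:16984865-16984894, minus strand): aagaaacctGAAATTTCAAGAAacttgcag
HSP17.6C (chr1:19980237-19980266, plus strand): tcaacaccaGAAACTTCTTGAAagcacctg
HSP18.1 (chr5:24062387-24062416, plus strand): tcaacaaacGAAACTTCCTGAAatgccaag
Between the stretch and the gene start lie 2 bases in HSFB2A and 195 bases in HSP17.6C, with the other genes in between. They belong to 3 HSFs, 3 HSP70 genes, 1 HSP90 gene and 3 small HSPs. A match is a description of the sequence and says nothing of whether a factor binds there. The share depends on where a gene is taken to start: before the starts of the RefSeq annotation, which often lie further upstream, 20.2% of the 84 genes and 16% of all protein-coding genes held a paired element, and 5.95% and 0.393% held the 3-unit element.

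Of the 84 genes, 59 had enough reads to be tested. SEC exceeded REC in 24 of them and lay below REC in 8, and 27 were not called (edgeR quasi-likelihood test, adjusted p under 0.05). The called share, 54.2%, lay below that of all 17246 genes tested, of which 60.8% were called. By direction, 40.7% of the 59 genes were higher in SEC against 28.9% of all genes, and 13.6% were lower against 31.9%. The median log2 fold change (SEC minus REC) was 0.68, against -0.07 over all genes tested. REC and SEC libraries were fully apart, in either direction, for 36 of the 59 genes (61%), against 71.5% of all genes. The balance depended on the scaling of the libraries. With upper-quartile factors 20 genes were higher and 10 lower, and with library size alone 15 were higher and 13 lower, while the median of all genes moved from -0.07 to -0.31 and -0.61. Higher genes made up 75% of the calls among the 59 with TMM, 66.7% with upper-quartile factors and 53.6% with library size alone. Over all genes tested these shares were 47.5%, 41.5% and 33.7%, lower under each scaling. Family counts with library size alone, given below, stand beside the last of these shares. All fold changes that follow refer to the TMM scale.

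**Figure D1:**
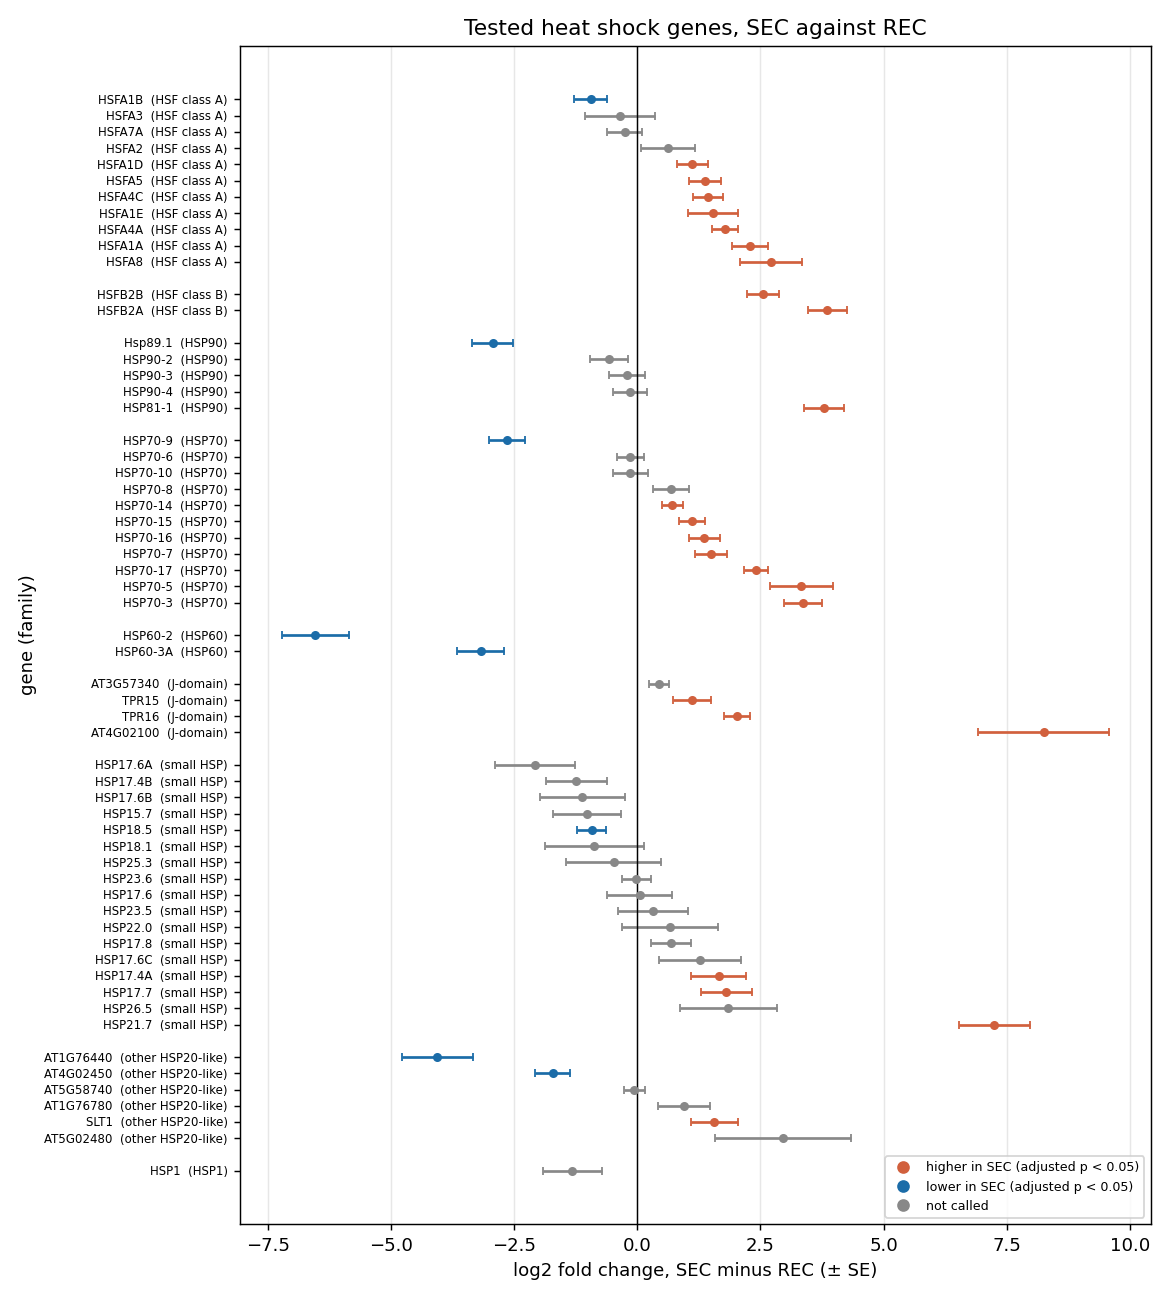
Log2 fold change of each of the 59 tested genes (SEC minus REC, x axis; points with bars of ± SE), grouped by family on the y axis; orange points were higher in SEC, blue points lower and grey points not called. Most HSF and HSP70 points lie to the right of 0, both HSP60 points to the left, and most small HSP points are grey; the value of AT4G02100, with 0 counts in REC, is a fitted one that depends on the prior count.

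The 25 genes that could not be tested had at most 92 counts over all libraries, and 10 of them had 0 counts everywhere. They include 8 HSFs, 11 of the other HSP20-like genes and 2 small HSPs, HSP14.7 and HSP15.4. Total counts per library were between 13222538 and 17192864, and 3 counts over a group correspond to 0.058 CPM in REC and 0.0818 CPM in SEC, a floor that covers counting error only. Of the 4 abscission zone markers QRT2, HAE, ADPG2 and IDA, all were higher in SEC; their summed level was 146, 156 and 468 CPM in REC replicates 1, 2 and 3 and 9041, 7020 and 7920 CPM in SEC. Mesophyll markers summed to between 972 and 2199 CPM in REC and between 51 and 59.2 CPM in SEC, with 5 of 5 lower in SEC. Epidermal markers were between 75.5 and 167 CPM in REC and at most 3.99 CPM in SEC, with 3 of 4 lower. Phloem markers reached 34.1 CPM in REC and 3.44 CPM in SEC, and xylem and guard cell markers stayed at or below 2.93 CPM in every library, with CESA8 and XCP2 at 0. Pollen markers reached 0.823 CPM in REC and 16.4 CPM in SEC, nearly all of it SKS11. In such bulk samples fewer cells of a type and less RNA per cell cannot be told apart, and the part of these markers in the results below was not tested.

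Levels below are TMM-normalised CPM (counts per library of fixed size), and 3 values in a row are those of replicates 1, 2 and 3. REC replicate 3 stood apart from the other REC libraries in small HSP levels, so several results are also given without it. Genes outside the naming rule that are given to complete a family were chosen after their values were seen.

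HSF genes were mostly higher in SEC. Of 13 tested HSFs, 9 (69.2%) were higher, 1 (7.69%) was lower and 3 were not called. Over all genes tested 28.9% were higher and 31.9% lower. The median log2 fold change of these HSFs was 1.43 against -0.07 for all genes. Both tested class B factors were higher, as were 7 of the 11 tested class A factors. With library size alone 7 HSFs were higher and 1 lower.

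The class B factor HSFB2A (AT5G62020; chromosome 5, 24916089 to 24917643, plus strand) had the largest fold change of the 13. Its level was 14.6, 19 and 7 CPM in REC and 240, 161 and 187 CPM in SEC, so that the lowest SEC library lay far above the highest REC library. The means were 13.5 ± 6.07 and 196 ± 40.4 CPM (SD, n = 3), and the log2 fold change was 3.86 ± 0.39 (SE, adjusted p by edgeR = 0.000104). HSFB2B (AT4G11660; chromosome 4, 7042630 to 7044708, plus strand), a repressor of heat-inducible genes in Arabidopsis, was at 8.33, 6.96 and 7.17 CPM in REC and 58.2, 42.1 and 31.2 CPM in SEC. Here too the groups were apart, with a log2 fold change of 2.55 ± 0.32 (SE, adjusted p by edgeR = 0.000272). HSFB2B overlaps genes annotated on the opposite strand, and without a stated strand setting their reads cannot be told apart. The other three class B factors were not detectable or nearly so: HSFB1 and HSFB4 had 0 counts in every library, and HSFB3 reached 0.41 CPM in SEC replicate 2 with 0 counts in REC.

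The 4 class A1 factors, which start the heat response in Arabidopsis, did not move together. HSFA1A (AT4G17750; chromosome 4, 9869818 to 9871603, minus strand) was at 3.14, 4.14 and 2.7 CPM in REC and 17.1, 16.8 and 15 CPM in SEC, and its log2 fold change was 2.29 ± 0.37 (SE, adjusted p by edgeR = 0.001). Both groups were tight and did not overlap. HSFA1D (AT1G32330) was at 8.09, 11.2 and 10.9 CPM in REC and 23.9, 16.5 and 25.5 CPM in SEC (log2 1.12 ± 0.32, SE, adjusted p by edgeR = 0.0156). HSFA1E (AT3G02990) was at 2.78, 5.58 and 2.59 CPM in REC and 10.5, 7.04 and 14.5 CPM in SEC (log2 1.54 ± 0.51, SE, adjusted p by edgeR = 0.0287). The call of HSFA1D was lost with library size alone and without SEC replicate 1 or 3, and that of HSFA1E in 8 alternatives at the same threshold. HSFA1B (AT5G16820; chromosome 5, 5530273 to 5532889, plus strand) went the other way, at 18.3, 16.3 and 23.8 CPM in REC and 12.3, 9.84 and 8.08 CPM in SEC. Its log2 fold change of -0.95 ± 0.33 (SE, adjusted p by edgeR = 0.0336) made it the only HSF lower in SEC, and this call ended with no filter on low counts and without REC replicate 1 or 3 or SEC replicate 2 or 3. HSFA1B also overlaps an opposite-strand gene, AT5G16830.

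Among the other class A factors, HSFA4A (AT4G18880; chromosome 4, 10347582 to 10349562, minus strand), linked to salt and oxidative stress responses, had the highest level per kb of exon of the class, 74.9 CPM per kb in SEC. It was at 44.7, 48.6 and 60.7 CPM in REC and 226, 133 and 169 CPM in SEC (log2 1.78 ± 0.26, SE, adjusted p by edgeR = 0.000579). All SEC libraries exceeded all REC libraries. HSFA4C (AT5G45710) was at 35.4, 36.7 and 19.5 CPM in REC and 67.5, 76.5 and 102 CPM in SEC, a log2 fold change of 1.43 ± 0.30 (SE, adjusted p by edgeR = 0.0041). HSFA5 (AT4G13980), which pairs with HSFA4 factors and inhibits them, was at 19.9, 13.2 and 27.7 CPM in REC and 55.6, 43.5 and 58 CPM in SEC, a log2 fold change of 1.37 ± 0.32 (SE, adjusted p by edgeR = 0.00599). The genes of the HSFA4 factors and of their partner were thus higher in the same group of cells. HSFA8 (AT1G67970; chromosome 1, 25484699 to 25486462, minus strand) was at 1.15, 5.91 and 8.82 CPM in REC and 35.3, 32.5 and 36.6 CPM in SEC (log2 2.71 ± 0.63, SE, adjusted p by edgeR = 0.0059). The SEC libraries were alike and the REC libraries were not, and without REC replicate 3 the log2 fold change of HSFA8 was 3.30.

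The remaining class A factors were either not called or too low to be tested. HSFA2 (AT2G26150), which heat induces strongly and which sustains the response, was at 25, 29.2 and 9.53 CPM in REC and 53, 31.6 and 14 CPM in SEC (log2 0.63 ± 0.55, SE, adjusted p by edgeR = 0.348). Replicate 3 was the lowest library of HSFA2 in both groups, and the groups overlapped. HSFA7A (AT3G51910) stayed between 7.11 and 12.8 CPM in all 6 libraries (log2 -0.26 ± 0.35, SE, adjusted p by edgeR = 0.551), and HSFA3 (AT5G03720) between 1.18 and 3.44 CPM (log2 -0.36 ± 0.71, SE, adjusted p by edgeR = 0.681). Among the untested factors, HSFA6A had 0 counts in every library, HSFA6B had counts in SEC replicate 1 only and HSFA7B did not exceed 0.939 CPM. HSFA9, a seed factor, was at most 0.235 CPM. The single class C factor, HSFC1, had 86 counts in REC replicate 2, 6 in REC replicate 3 and 0 in the other 4 libraries.

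**Figure D2:**
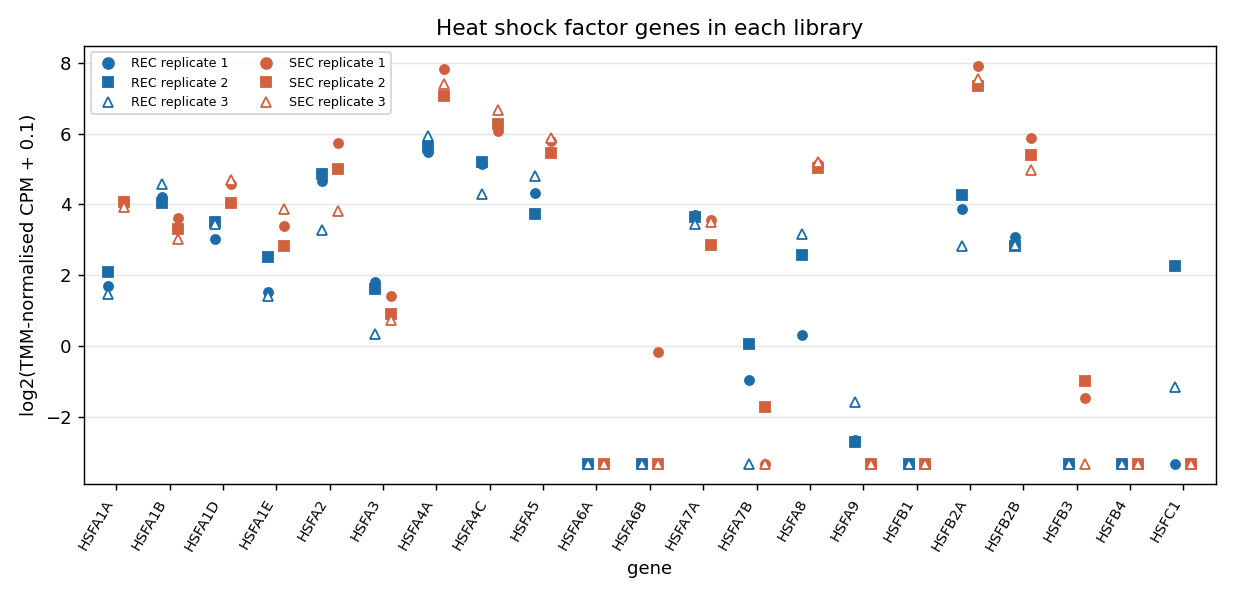
Level of the 21 HSF genes in each library, as log2(TMM-normalised CPM + 0.1) on the y axis, with REC in blue, SEC in orange and a symbol for each replicate. HSFB2A rises from between 7 and 19 CPM in REC to between 161 and 240 CPM in SEC, and genes on the bottom line had 0 counts.

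All 5 HSP90 genes were tested, and SEC was higher for 1 (20%), lower for 1 (20%) and without a call for 3. Over all genes tested 28.9% were higher and 31.9% lower. HSP81-1 (AT5G52640; chromosome 5, 21352399 to 21355361, plus strand), the heat-inducible cytosolic HSP90, was at 43.2, 50.4 and 32.2 CPM in REC and 915, 494 and 333 CPM in SEC. The SEC libraries differed among themselves by more than the REC libraries but were all far above them, with means of 41.9 ± 9.19 and 581 ± 301 CPM (SD, n = 3), and the log2 fold change was 3.79 ± 0.41 (SE, adjusted p by edgeR = 0.000141). The cognate cytosolic genes HSP90-2, HSP90-3 and HSP90-4 were not called. HSP90-2 (AT5G56030) was at 518, 461 and 337 CPM in REC and 467, 263 and 154 CPM in SEC, overlapping groups with a log2 fold change of -0.58 ± 0.39 (SE, adjusted p by edgeR = 0.228), and it was called lower with library size alone and without SEC replicate 1. HSP90-3 and HSP90-4 had log2 fold changes of -0.21 ± 0.36 and -0.15 ± 0.35 (SE, adjusted p by edgeR of 0.63 and 0.726). These 3 genes are neighbours on chromosome 5, between 18.9% and 24.8% of the 50-base stretches of their exons occur elsewhere in the genome, and their counts are uncertain to that extent. Hsp89.1 (AT3G07770; chromosome 3, 2479548 to 2484194, plus strand), the mitochondrial HSP90, was lower in SEC, at 90.1, 94.2 and 139 CPM in REC and 22.6, 11.6 and 7.9 CPM in SEC (log2 -2.94 ± 0.41, SE, adjusted p by edgeR = 0.000503).

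Among the 11 tested HSP70 genes SEC was higher for 7 (63.6%) and lower for 1 (9.09%), with 3 not called. Over all genes tested the shares were 28.9% and 31.9%. The median log2 fold change of the HSP70 genes was 1.11. With library size alone 4 were higher and 1 lower. HSP70-3 (AT3G09440; chromosome 3, 2903198 to 2905729, minus strand), a cytosolic HSP70, had the highest level per kb of exon of all 84 genes, 63.7 CPM per kb in REC and 655 CPM per kb in SEC. Its level was 237, 266 and 113 CPM in REC and 2729, 1858 and 1742 CPM in SEC. The groups were far apart, with a log2 fold change of 3.36 ± 0.38 (SE, adjusted p by edgeR = 0.000161), and HSP70-3 overlaps the opposite-strand gene AT3G09430. HSP70-5 (AT1G16030; chromosome 1, 5502206 to 5504535, minus strand), a heat-inducible cytosolic member, was at 7.6, 15.3 and 2.06 CPM in REC and 107, 86.2 and 59.4 CPM in SEC. Its log2 fold change was 3.33 ± 0.64 (SE, adjusted p by edgeR = 0.00249), and 4.12 without REC replicate 2.

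The large HSP70 relatives, which act as exchange factors for other HSP70 proteins, were also higher. HSP70-17 (AT4G16660; chromosome 4, 9376737 to 9381507, plus strand), the relative in the endoplasmic reticulum, was at 45.1, 56.6 and 50.3 CPM in REC and 298, 307 and 204 CPM in SEC, and its log2 fold change was 2.41 ± 0.24 (SE, adjusted p by edgeR = 8.64e-05). Its REC libraries lay between 45.1 and 56.6 CPM and its groups did not overlap. HSP70-14, HSP70-15 and HSP70-16 had log2 fold changes of 0.71 ± 0.21, 1.11 ± 0.27 and 1.36 ± 0.31 (SE, adjusted p by edgeR of 0.017, 0.00826 and 0.00562), with no overlap between the groups. HSP70-14 and HSP70-15 are neighbours, and 12.3% and 11.8% of the 50-base stretches of their exons occur elsewhere in the genome. All 3 calls were lost with library size alone, and that of HSP70-14 also with upper-quartile factors and without REC replicate 1 or SEC replicate 2.

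HSP70 genes of the organelles behaved differently from each other. Of the chloroplast pair, HSP70-7 (AT5G49910) was at 18, 36.9 and 22.1 CPM in REC and 88.8, 75.9 and 53 CPM in SEC (log2 1.50 ± 0.33, SE, adjusted p by edgeR = 0.00509), whereas HSP70-6 (AT4G24280) was at 75.4, 106 and 88.1 CPM in REC and 104, 83.6 and 56.9 CPM in SEC (log2 -0.14 ± 0.27, SE, adjusted p by edgeR = 0.668). The difference between them was not tested, and both overlap a gene annotated on the opposite strand. Of the mitochondrial pair, HSP70-9 (AT4G37910; chromosome 4, 17825080 to 17828180, minus strand) was lower in SEC, at 267, 299 and 546 CPM in REC and 83.2, 45.4 and 48.2 CPM in SEC (log2 -2.65 ± 0.37, SE, adjusted p by edgeR = 0.000489). HSP70-10 (AT5G09590) was at 82.1, 110 and 103 CPM in REC and 146, 57.9 and 65 CPM in SEC, overlapping groups with a log2 fold change of -0.14 ± 0.36 (SE, adjusted p by edgeR = 0.761), and it was called lower without SEC replicate 1. HSP70-8 was not called (adjusted p by edgeR = 0.139) but was higher without SEC replicate 3, and HSP70-18 had 0 counts in every library.

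Both HSP60 genes, which encode subunits of the mitochondrial chaperonin, were lower in SEC, as were 31.9% of all genes tested. HSP60-2 (AT2G33210; chromosome 2, 14074870 to 14078744, minus strand) was at 203, 178 and 239 CPM in REC and 4.88, 1.09 and 0.743 CPM in SEC. The means were 207 ± 30.9 and 2.24 ± 2.29 CPM (SD, n = 3), and the log2 fold change was -6.54 ± 0.68 (SE, adjusted p by edgeR = 0.00011), moving to -7.79 without SEC replicate 1. HSP60-3A (AT3G13860; chromosome 3, 4561517 to 4565279, minus strand) was at 72.6, 63.2 and 92.8 CPM in REC and 13.7, 8.06 and 3.44 CPM in SEC (log2 -3.18 ± 0.48, SE, adjusted p by edgeR = 0.000686). Of the 7 genes that the table describes as mitochondrial, these 2 and HSP70-9 were lower in SEC and 4 were not called. The lower share was 42.9%, against 31.9% of all genes tested. Hsp89.1, also lower in SEC, is not among these 7.

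**Figure D3:**
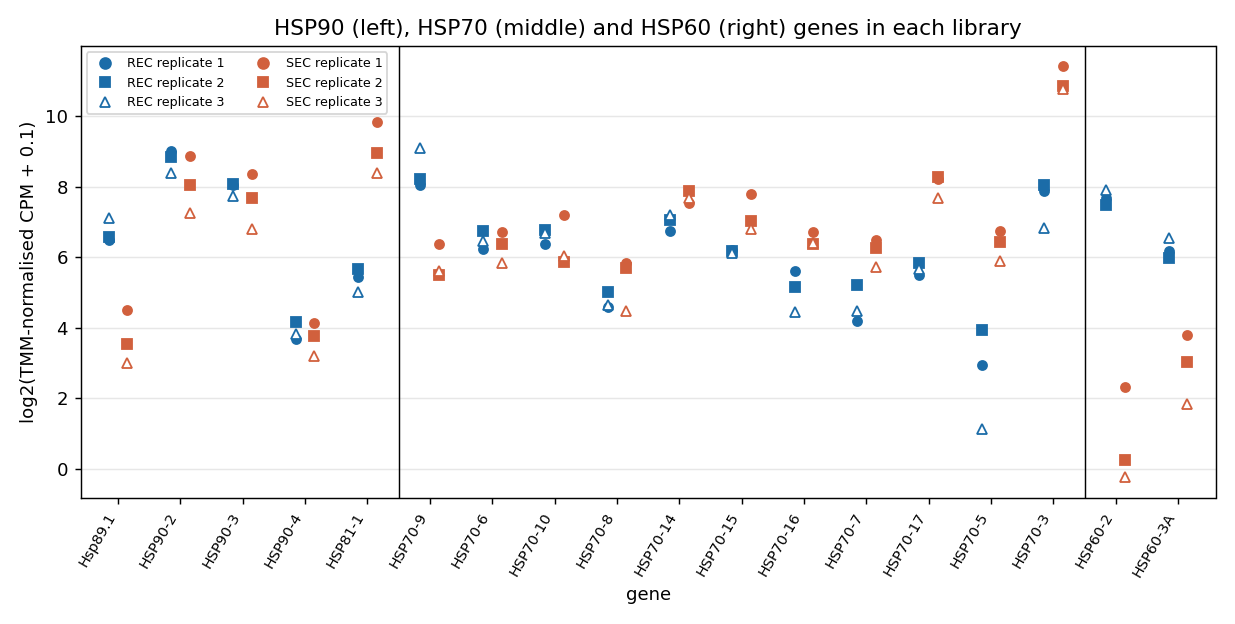
Level of the tested HSP90, HSP70 and HSP60 genes in each library, as log2(TMM-normalised CPM + 0.1) on the y axis, with REC in blue, SEC in orange and a symbol for each replicate; vertical lines part the families. HSP81-1 and HSP70-3 lie higher in SEC, at up to 915 and 2729 CPM, while HSP60-2 falls from between 178 and 239 CPM to at most 4.88 CPM.

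J-domain proteins deliver clients to HSP70 and stimulate its ATPase. SEC was higher for 3 of the 4 tested genes (75%, against 28.9% of all genes tested), and with library size alone for 2 of them. AT4G02100 (chromosome 4, 930065 to 932330, plus strand), whose product combines a DnaJ domain with tetratricopeptide repeats, had 0 counts in REC and 24, 30 and 38 counts in SEC. Its SEC level was 2.13, 2.05 and 3.53 CPM. The mean of these, 2.57 CPM, was 44.3-fold the floor of 3 counts over the REC group (adjusted p by edgeR = 0.00239). TPR16 (AT5G12430), of the same domain make-up, was at 18.3, 20.9 and 22.8 CPM in REC and 70, 68.9 and 113 CPM in SEC (log2 2.02 ± 0.27, SE, adjusted p by edgeR = 0.000391). Its groups did not overlap. TPR15 (AT2G41520) was at 12.6, 23 and 10.1 CPM in REC and 26.4, 28.9 and 43.2 CPM in SEC (log2 1.11 ± 0.38, SE, adjusted p by edgeR = 0.0347), a call that was lost in 8 alternatives at the same threshold. AT3G57340 was not called (log2 0.44 ± 0.20, SE, adjusted p by edgeR = 0.0946), although its SEC libraries all lay above its REC libraries.

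Small HSPs showed large differences between the libraries of one group and few calls between the groups. Among the 17 tested genes SEC was higher for 3 and lower for 1, with 13 not called, and the median log2 fold change was 0.05. The called share was thus 23.5%, against 60.8% of all genes tested. REC and SEC libraries were fully apart for 5 of the 17 (29.4%), against 71.5% of all genes tested. Their summed level was 1553, 1664 and 517 CPM in REC and 2371, 1707 and 973 CPM in SEC, so that replicate 3 was the lowest in both groups. With library size alone 1 was higher and 3 were lower.

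HSP21.7 (AT5G54660; chromosome 5, 22203905 to 22205152, plus strand) stood apart from the other small HSPs. It was at 0, 0.386 and 0.47 CPM in REC and 44.6, 37.7 and 53.6 CPM in SEC, a log2 fold change of 7.25 ± 0.72 (SE, adjusted p by edgeR = 9.07e-05). Both groups were narrow, and the call held in every alternative. Its window held no paired heat shock element.

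The class I and class II small HSPs of the cytosol are among the most heat-inducible plant genes. Among the genes grouped here as small HSPs, 8 are described as class I or II, and all were tested. Of these, 2 were higher (25%, against 28.9% of all genes tested) and 6 were not called. HSP1, kept apart from the small HSPs, has a class II product name in RefSeq and is not counted among the 8. HSP17.7 (AT5G12030; chromosome 5, 3884107 to 3884737, minus strand), of class II, was at 121, 136 and 32.9 CPM in REC and 422, 388 and 209 CPM in SEC (log2 1.81 ± 0.51, SE, adjusted p by edgeR = 0.0153). HSP17.4A (AT3G46230; chromosome 3, 16984118 to 16984841, minus strand), of class I, was at 107, 120 and 30.2 CPM in REC and 412, 255 and 139 CPM in SEC (log2 1.65 ± 0.55, SE, adjusted p by edgeR = 0.031). In both genes replicate 3 was lowest in each group and the groups did not overlap. Without REC replicate 3 the log2 fold changes of HSP17.7 and HSP17.4A were 1.41 and 1.25, and both were still called higher. Both calls were lost with library size alone and without SEC replicate 1 or 2, and that of HSP17.4A, which overlaps opposite-strand genes, also with upper-quartile factors and without REC replicate 1. HSP17.8 (AT1G07400), the small HSP with the highest level per kb of exon in REC, 218 CPM per kb, was at 227, 211 and 123 CPM in REC and 481, 260 and 159 CPM in SEC (log2 0.68 ± 0.41, SE, adjusted p by edgeR = 0.184). HSP17.6 (AT5G12020), of class II, was at 177, 205 and 27.4 CPM in REC and 181, 172 and 71.6 CPM in SEC (log2 0.05 ± 0.66, SE, adjusted p by edgeR = 0.95).

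REC replicate 3 held much less of most small HSP transcripts than REC replicates 1 and 2. Among the 16 small HSPs with at least 10 CPM on average in those 2 libraries, 10 (62.5%) were more than 4-fold lower in REC replicate 3, against 170 of 10414 genes (1.63%) overall. The median level in REC replicate 3 was 15.2% of the mean of replicates 1 and 2, against 98.5% over all genes. HSP18.1 (AT5G59720) was at 45.9, 48.3 and 0.823 CPM in REC, and HSP22.0 (AT4G10250), of the endoplasmic reticulum, at 33.9, 26.8 and 0.529 CPM. HSP17.6B (AT2G29500) was at 235, 291 and 15 CPM in REC. The mitochondrial gene HSP23.5 (AT5G51440) went against this, at 20.7, 17.4 and 84.4 CPM in REC. Of the other genes among the 84, 1 of 32, HSP70-5, was more than 4-fold lower in REC replicate 3. The low level was not limited to small HSPs, as genes outside the naming rule show. Relative to the mean of REC replicates 1 and 2, HSP101 and HSP70-2 were at 20.1% and 19.4% in REC replicate 3. HSP70-4 and HSC70-1 were at 39.6% and 76.1%, and HSP90-5 and HSP90-7 at 111% and 359%. The abscission zone markers were higher in REC replicate 3 than in the other REC libraries, at 468 CPM summed, and the mesophyll markers lower, at 972 CPM; their part in the low small HSP levels was not tested.

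**Figure D4:**
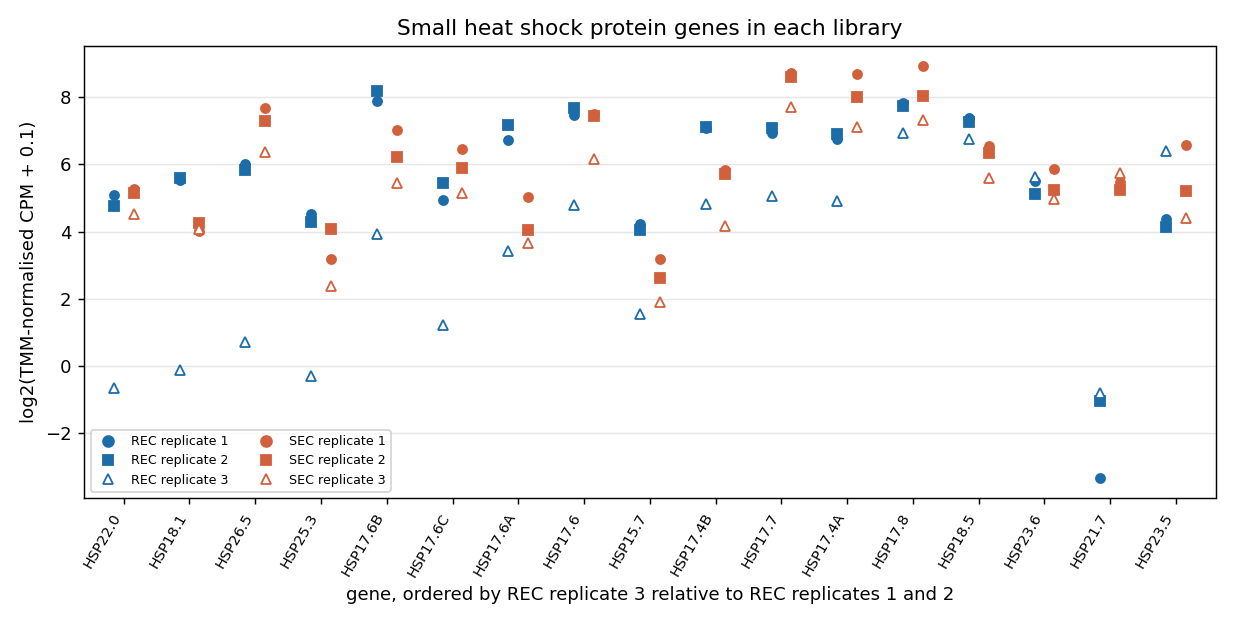
Level of the 17 tested small HSP genes in each library, as log2(TMM-normalised CPM + 0.1) on the y axis, with REC in blue, SEC in orange and a symbol for each replicate; genes are ordered by REC replicate 3 relative to REC replicates 1 and 2. The open blue triangles of REC replicate 3 lie far below the other REC symbols at the left, as for HSP18.1 with 0.823 against 45.9 and 48.3 CPM, and HSP21.7 is near 0 in REC.

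Without REC replicate 3, SEC was higher for 4 small HSPs and lower for 6. The 6 lower ones by edgeR then included HSP17.6A (log2 -2.58), HSP17.6B (log2 -1.65), HSP17.4B (log2 -1.67), HSP15.7 (log2 -1.48) and HSP18.1 (log2 -1.43). With all libraries none of these 5 was called, and their log2 fold changes were -2.07 ± 0.81, -1.12 ± 0.86, -1.24 ± 0.62, -1.02 ± 0.69 and -0.87 ± 1.00 (SE). HSP17.6A (AT1G59860), at 105, 143 and 10.5 CPM in REC and 32.8, 16.3 and 12.5 CPM in SEC, was close to the threshold (adjusted p by edgeR = 0.0536), and it was lower with DESeq2, limma voom, library size alone, upper-quartile factors and both other filters. HSP17.4B was also lower with library size alone and with limma voom. HSP26.5 (AT1G52560), a mitochondrial small HSP, was at 64.4, 57.3 and 1.53 CPM in REC and 204, 157 and 82.3 CPM in SEC, with no overlap between the groups. It was not called with all libraries (log2 1.85 ± 0.98, SE, adjusted p by edgeR = 0.134) and was higher without REC replicate 3 (log2 1.29) and with limma voom.

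The single lower small HSP with all libraries was HSP18.5 (AT2G19310; chromosome 2, 8369794 to 8370406, minus strand), at 165, 154 and 107 CPM in REC and 93.7, 81.1 and 47.7 CPM in SEC. Its log2 fold change was -0.93 ± 0.30 (SE, adjusted p by edgeR = 0.0251), and the call was lost without REC replicate 1 or 2 or SEC replicate 2 or 3. The small HSPs of the organelles gave no call with all libraries. HSP25.3 of the chloroplast, HSP22.0 and the mitochondrial HSP23.6 and HSP23.5 had log2 fold changes of -0.48 ± 0.96, 0.66 ± 0.98, -0.02 ± 0.29 and 0.32 ± 0.71 (SE, adjusted p by edgeR of 0.688, 0.58, 0.948 and 0.72). Without REC replicate 3 the log2 fold change of HSP23.5 was 1.43, still not called, and those of HSP25.3, HSP22.0 and HSP23.6 were -1.02, 0.10 and 0.10. HSP23.6, at 45, 34.5 and 49.3 CPM in REC and 57.4, 37.9 and 31.4 CPM in SEC, was the steadiest of these.

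SEC libraries also ranked alike across the genes. SEC replicate 1 was the highest SEC library for 42 of the 59 tested genes (71.2%) and for 14 of the 17 small HSPs, against 35.9% of all genes. SEC replicate 3 was the lowest for 37 of the 59 (62.7%) and for 15 of the 17 small HSPs, against 35.8% of all genes. In REC, replicate 3 was the lowest for 14 of the 17 small HSPs (82.4%), against 34% of all genes.

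Of the 17 other HSP20-like genes only 6 could be tested. SEC was higher for 1 (16.7%) and lower for 2 (33.3%), and 3 were not called, against 28.9% higher and 31.9% lower over all genes tested. AT1G76440 (chromosome 1, 28682129 to 28683750, minus strand) was at 14, 14.2 and 18.3 CPM in REC and 0.178, 1.78 and 0.743 CPM in SEC (log2 -4.06 ± 0.72, SE, adjusted p by edgeR = 0.0016), and its log2 fold change was -5.11 without SEC replicate 2. AT4G02450 (chromosome 4, 1073753 to 1075893, minus strand) was among the 10 highest of the 84 genes by level per kb of exon, at 162 CPM per kb in REC and 49 CPM per kb in SEC. It was at 202, 164 and 179 CPM in REC and 70.7, 67.3 and 27.4 CPM in SEC (log2 -1.72 ± 0.35, SE, adjusted p by edgeR = 0.00333), and overlaps opposite-strand genes. SLT1 (AT2G37570), named for tolerance of sodium and lithium, was at 7.12, 20.4 and 31.5 CPM in REC and 62, 48.5 and 64 CPM in SEC (log2 1.56 ± 0.48, SE, adjusted p by edgeR = 0.0215). This call was lost with library size alone and without REC replicate 2 or SEC replicate 1 or 3. AT5G02480 had a wide REC group, at 0, 0.386 and 13.1 CPM, against 40.6, 30.4 and 33.8 CPM in SEC. It was not called (log2 2.96 ± 1.38, SE, adjusted p by edgeR = 0.0953) but was higher without REC replicate 3 (log2 7.40) and with limma voom. AT1G76780, at 7.48, 6.13 and 22.2 CPM in REC and 29.1, 24.9 and 15.1 CPM in SEC, was likewise called higher only without REC replicate 3 and with limma voom. HSP1 (AT4G14830) was at 7.9, 8.12 and 7.17 CPM in REC and 1.07, 4.65 and 3.53 CPM in SEC and was not called (log2 -1.32 ± 0.60, SE, adjusted p by edgeR = 0.0868), with a lower call with library size alone, upper-quartile factors and limma voom.

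By level per kb of exon, the 10 highest genes held HSP70-3, HSP17.7, HSP17.4A, HSP17.8, HSP81-1, HSP17.6B, AT4G02450, HSP17.6, HSP90-2 and HSP26.5, in the order of the higher of their group means. In REC the order was led by HSP17.8 at 218 and HSP17.6B at 171 CPM per kb, and in SEC by HSP70-3 at 655 and HSP17.7 at 385 CPM per kb. Neighbours in this order, such as HSP17.7, HSP17.4A and HSP17.8 in SEC with 385, 371 and 350 CPM per kb, did not differ beyond the spread of their libraries. Dividing by the length of the gene span kept 9 of the 10.

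Called and uncalled genes were compared for the heat shock elements shown above. Of the 24 genes higher in SEC, 11 (45.8%) had a paired element and 6 (25%) a 3-unit element, the latter being HSP70-3, HSP17.4A, HSFB2B, HSP70-7, HSP81-1 and HSFB2A. Of the 8 lower genes, 2 (25%) had a paired element and 0 a 3-unit element. Of the 27 genes not called, 15 (55.6%) had a paired element and 4 (14.8%) a 3-unit element, namely HSP17.6C, HSFA2, HSP70-6 and HSP18.1. A paired element was thus no more frequent among the genes higher in SEC than among those not called. By family, 12 of 19 small HSPs (63.2%), 7 of the 8 class I and II genes (87.5%), 5 of 13 HSP70 genes (38.5%), 2 of 5 HSP90 genes (40%) and 6 of 21 HSFs (28.6%) had a paired element. Among all genes tested in the comparison the share was 16.5%. These shares depended on which start was used. In the window before the RefSeq start, 20.8% of the higher, 12.5% of the lower and 25.9% of the uncalled genes had a paired element, and the 3-unit element was in 4.17%, 0% and 11.1% of them, so that the order of higher and uncalled genes for the 3-unit element turned round. By family, the paired element was then in 36.8% of small HSPs, 37.5% of the class I and II genes, 7.69% of HSP70 genes, 0% of HSP90 genes and 23.8% of HSFs, against 15.9% of all genes tested, which puts HSP70 and HSP90 below the share of all genes.

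**Figure D5:**
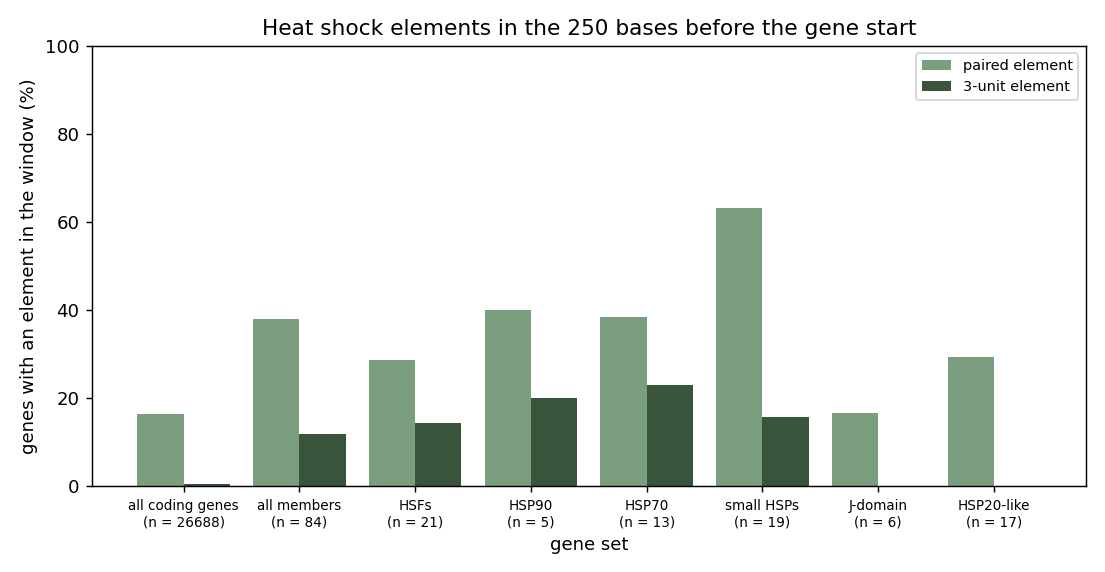
Share of genes with a paired (light bars) or 3-unit (dark bars) heat shock element in the 250 bases before the gene start, in percent on the y axis, for all protein-coding nuclear genes, all 84 genes and the families. The paired element reaches 63.2% among small HSPs against 16.5% of all protein-coding genes; before the RefSeq start, which is not drawn, these shares were 36.8% and 16%.

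Genes that the table names otherwise, added after their values were seen, fell on both sides. HSP101 (AT1G74310), the cytosolic disaggregase, was at 29.7, 47.5 and 7.76 CPM in REC and 328, 201 and 121 CPM in SEC (log2 2.94 ± 0.64, SE, adjusted p by edgeR = 0.00451), and its log2 fold change was 3.54 without REC replicate 2. The cytosolic HSP70-4 (AT3G12580) was at 64, 71.1 and 26.8 CPM in REC and 1144, 620 and 531 CPM in SEC (log2 3.83 ± 0.47, SE, adjusted p by edgeR = 0.000252). HSP70-2 (AT5G02490) was at 19.2, 28.7 and 4.65 CPM in REC and 173, 113 and 108 CPM in SEC (log2 2.90 ± 0.59, SE, adjusted p by edgeR = 0.00314). HSC70-1 (AT5G02500), the main cognate HSP70, was at 2029, 2053 and 1553 CPM in REC and 1534, 1770 and 908 CPM in SEC, overlapping groups with a log2 fold change of -0.42 ± 0.28 (SE, adjusted p by edgeR = 0.224); with library size alone it was lower. In HSP101, HSP70-2 and HSP70-4 replicate 3 was the lowest library of each group. Without REC replicate 3 the log2 fold changes of these genes were 2.50, 2.46 and 3.51. HSP101 overlaps opposite-strand annotation and was not in the fit without such genes. The chloroplast HSP90-5 (AT2G04030) was lower in SEC, at 90.4, 100 and 105 CPM in REC and 1.78, 1.91 and 1.21 CPM in SEC (log2 -5.90 ± 0.29, SE, adjusted p by edgeR = 1.17e-05). HSP90-7 (AT4G24190), of the endoplasmic reticulum, was at 218, 193 and 736 CPM in REC and 706, 834 and 771 CPM in SEC; it was not called (log2 1.01 ± 0.49, SE, adjusted p by edgeR = 0.105) and was higher without REC replicate 3, with DESeq2 and with limma voom.

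Partner genes of the same pathways were described by lists. Of 20 tested cochaperones of HSP90 and HSP70, 6 were higher in SEC and 6 lower, with a median log2 fold change of 0.34. These counts are near the shares over all genes tested, 28.9% higher and 31.9% lower. The counts of the lists below stand beside the same shares. BAG6 (AT2G46240), a BAG-domain cochaperone, rose from 12.1 ± 7.21 to 258 ± 67.2 CPM (SD, n = 3, log2 4.42 ± 0.51, SE, adjusted p by edgeR = 0.000193) and BAG1 (AT5G52060) from 38.3 ± 10.1 to 176 ± 11.3 CPM (SD, n = 3). HSBP (AT4G15802), which binds HSFs and represses them in Arabidopsis, fell from 112 ± 12 to 28.4 ± 1.58 CPM (SD, n = 3, log2 -1.97 ± 0.20, SE, adjusted p by edgeR = 9.92e-05). Without genes that have an opposite-strand overlap there were 2 higher and 6 lower cochaperones.

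Of 10 tested heat stress genes outside the chaperones, 5 were higher and 1 was lower, with a median of 1.59. DREB2A (AT5G05410), a drought and heat transcription factor that acts upstream of HSFA3, rose from 39.5 ± 14.9 to 527 ± 125 CPM (SD, n = 3, log2 3.74 ± 0.36, SE, adjusted p by edgeR = 8.53e-05), while HSFA3 itself was not called. DREB2A and HSFA3 overlap opposite-strand annotation. ZAT12 (AT5G59820), a zinc finger gene of several stress responses, rose from 127 ± 32.8 to 978 ± 88.5 CPM (SD, n = 3). APX2, a heat-inducible ascorbate peroxidase gene, had 2 counts over the REC libraries and 23, 39 and 17 counts in SEC (adjusted p by edgeR = 0.00607). ZAT12 is also in a list of genes known to respond to handling and wounding, of whose 13 members 9 were higher in SEC and 3 lower. Their summed level was 1487, 1690 and 1032 CPM in REC and 7018, 6101 and 6512 CPM in SEC, with a median log2 fold change of 2.60. Its part in the higher HSF and HSP levels of SEC was not tested.

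Organelle and endoplasmic reticulum lists went opposite ways. Of 8 tested chaperones of plastids and mitochondria, 6 were lower in SEC and 1 was higher, with a median log2 fold change of -3.68. CPN60B1 (AT1G55490), a plastid chaperonin subunit, fell from 66.4 ± 10.9 to 1.16 ± 0.687 CPM (SD, n = 3), and its cochaperonin CPN20 (AT5G20720) from 128 ± 29.4 to 6.34 ± 1.23 CPM (SD, n = 3). The mitochondrial chaperonin HSP60 (AT3G23990), which the table names CPN60 and which is therefore outside the 84, fell from 81.3 ± 10.9 to 4.52 ± 1.21 CPM (SD, n = 3, log2 -4.17 ± 0.30, SE, adjusted p by edgeR = 2.38e-05). Leaving out genes with an opposite-strand overlap left 3 of the organelle genes lower. Of 17 tested genes of protein folding in the endoplasmic reticulum, 14 were higher in SEC and 1 was lower, with a median of 1.88. Their summed level was 1357, 1566 and 3330 CPM in REC and 7556, 8919 and 7789 CPM in SEC, so REC replicate 3 stood above the other REC libraries, and without it 16 were higher and 1 was lower. The HSP70-type chaperone BIP2 (AT5G42020) rose from 377 ± 101 to 2464 ± 389 CPM (SD, n = 3, log2 2.71 ± 0.27, SE, adjusted p by edgeR = 9.18e-05), BIP1 (AT5G28540) from 288 ± 92.7 to 1083 ± 241 CPM (SD, n = 3), and BZIP28 (AT3G10800), a membrane-bound factor that activates them, from 37.7 ± 2.99 to 259 ± 17.9 CPM (SD, n = 3). The mesophyll markers given above moved in the direction of the organelle genes, and their part in that result was not tested.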

How the data were processed

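The authors deposited 1 table of whole-number read counts per gene, not normalized, with a column for each of the 6 libraries. The submitters' processing notes name the aligner TopHat2 2.0.9, the counter HTSeq 0.6.1 and the build TAIR10, besides Trimmomatic 0.32.3, Picard, FastQC, bcl2fastq and DESeq2. The counter's strand setting is not given in the sources used here. Its 5 summary rows stayed out of library sizes and tests; they give reads at several sites as 6.86% to 11.83% of records, so counts of near-identical copies are uncertain.

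The 84 genes, their families and all lists were chosen with earlier results of these data known. SEC was compared with REC in R 4.3.3 by edgeR 4.0.16 (TMM factors, filterByExpr, quasi-likelihood F test) over 17246 genes, with Benjamini-Hochberg adjustment over all of them. Standard errors of log2 fold changes were derived as the fold change over the square root of F. The procedure was tested on simulated data. Named are every tested HSF, up to 4 called genes per family and direction by smallest adjusted p, the 10 highest levels per kb of exon, any called gene with 0 counts in a group, and up to 3 genes per partner list. The other lists hold cochaperones, heat stress genes, organelle chaperones, folding in the endoplasmic reticulum, and markers of cell types and handling.

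All 84 genes matched the RefSeq annotation by locus, which supplied strand, exons and overlaps; 16 lie over a gene on the opposite strand. Windows for heat shock elements were read from the RefSeq genome TAIR10.1, whose chromosomes share the coordinates of TAIR10: with the table's starts taken as 0-based, 14406 equal a RefSeq gene start, and taken as 1-based, 134 do. Coordinates are printed 1-based. Alternatives used RLE, upper-quartile or no scaling factors, other filters, DESeq2 1.42.0, limma 3.58.1 (voom with quality weights), a replicate block, an adjusted p of 0.01, opposite-strand overlaps left out and each library left out in turn.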

Additional observations from a re-analysis of the deposited data

How the results depend on the processing

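No called change of the 37 named genes reversed under the alternatives run: 525 comparisons kept their side of the threshold, 49 lost a call and 6 gained one. Fits that left a gene out were not counted, and 26 genes kept their result wherever they were tested. Of these, HSP70-3, HSFB2B, HSP70-7, AT4G02450 and HSFA3 could not be tested without opposite-strand overlaps. HSFA1A, HSFA3, AT4G02100 and AT1G76440 could not be tested at a mean of at least 10 CPM. The count of genes higher in SEC, 24, fell to 15 with library size alone, and the count of lower genes, 8, rose to 13. Over all genes tested, the share of calls that were higher in SEC fell from 47.5% to 33.7% with that change. Leaving out each library in turn gave 19 to 25 higher and 6 to 12 lower genes, the lowest count of higher genes coming without SEC replicate 1 and the highest count of lower genes, 12, without REC replicate 3. DESeq2 gave 24 and 9, limma voom 26 and 11, upper-quartile factors 20 and 10, and an adjusted p of 0.01 gave 17 and 6. The cause of these shifts was not tested. The labels do not say whether equal replicate numbers mark a shared plant, sort or pool. Deviations of same-numbered libraries correlated at -0.0218, -0.0101 and -0.016 across genes. Such low values over all genes cannot exclude a pairing that acts on some of them, and small HSP sums were lowest in replicate 3 of both groups. A fit with the replicate block gave 24 higher and 8 lower genes. It lost the calls of HSFA1B, HSFA1E and TPR15. It gained higher calls for HSP26.5 and AT5G02480 and a lower call for HSP17.4B. The share of the 84 genes with a heat shock element was 38.1% for the paired and 11.9% for the 3-unit motif, and 20.2% in the window before the RefSeq start, an alternative added after seeing the data; for all protein-coding genes these shares were 16.5%, 0.45% and 16%. A mean of at least 10 CPM left 3 higher and 0 lower heat stress genes, 1 higher J-domain gene and 1 lower epidermal marker, and without opposite-strand overlaps 0 handling genes were lower, since those genes were not in the fit. Groups of 3 libraries limit all calls, and for the 25 untested genes a difference was not detectable at this depth.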
